A study of Mus musculus with 12 samples.

Results

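RNA was compared between mouse embryonic stem cells (mESCs) that had switched on a reporter for the endogenous retrovirus MERVL and cells of the same line that had not. The comparison covered 4 of the 12 libraries in the series, 2 of GFP-positive and 2 of GFP-negative cells, taken by their labels, and every row of their count table: 29082 rows, of which 27590 were genes and 1492 were families of repeated sequence. Both groups were cells of TRE::3xHA-mDux; MERVL::EGFP, a line of clones each grown from a single cell. It carries a codon-altered mouse Dux transgene with a 3xHA tag (mDuxCA in the labels) in a lentivirus that doxycycline switches on, and an EGFP gene under MERVL control. The cells grew on gelatin with serum, leukemia inhibitory factor and 2i, the kinase inhibitors CHIR99021 and PD0325901, under constant Puromycin and G418. Both groups had received doxycycline for 24 h and were then separated by FACS, so the transgene and the drug were common to GFP-positive and GFP-negative cells, and no sorted library lacked either. Nothing in the labels ties the 2 libraries of a group to separate cultures, and the p-values below therefore measure a spread that may be technical only.

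DUX is a transcription factor with a pair of homeodomains that acts when the mouse embryo first switches on its own genome. It turns on genes of the cleavage-stage embryo and MT2_Mm, the long terminal repeat that serves as the promoter of MERVL, whose internal part is called MERVL-int. A small fraction of cultured embryonic stem cells enters such a state unaided; these cells, called 2-cell-like, carry abundant MERVL and Zscan4 transcripts, and MERVL reporters are used to mark them.

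The libraries held 51358607 and 50873444 gene reads in GFP-negative cells (libraries A and B) and 27292029 and 26446154 in GFP-positive cells. Levels are given as CPM, reads scaled to the gene reads of their library after a composition factor (TMM) that brings the middle of all genes to the same level. Log2 fold changes run from GFP-negative to GFP-positive and carry their standard error, with n = 2 libraries a group throughout. Tests were edgeR's quasi-likelihood tests, adjusted over all genes by the Benjamini-Hochberg method, and a gene is called higher or lower at an adjusted p under 0.05. Of 16403 genes tested 5631 (34.3%) were higher and 5252 (32.0%) lower, the shares against which the counts below are to be read; without the composition factor 4052 were higher and 7702 lower. Without that factor the median of all genes moved from 0.00 to -0.25 on the log2 scale, so a rise below that size changed sign with the scaling. The 6 ES cell markers, among them Pou5f1 and Sox2, all lower in GFP-positive cells, summed to 4743 and 4855 CPM in GFP-negative and 3529 and 3316 CPM in GFP-positive cells, and the 4 markers of 2-cell-like cells to 119 and 110 against 10175 and 9795 CPM. Of 6 fibroblast markers Dcn and Col3a1 had no read in any of the 4 libraries. The 6 together summed to 3.04 and 2.93 against 18.2 and 19.7 CPM, 3 of them being higher in GFP-positive cells. Of the blood and endothelial markers Ptprc, Cdh5 and Hba-a1 had at most 7 reads in any library, and Pecam1, an adhesion gene also expressed by embryonic stem cells, stood at 99.8 and 103 against 59.99 and 62.3 CPM. Trophectoderm markers summed to 1.87 and 1.96 against 1.44 and 1.85 CPM. Primitive endoderm markers summed to 2.36 and 2.08 against 6.90 and 7.92 CPM, with all 4 higher. The part of such cells in the results was not tested.

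Genes known from the cleavage stage were far higher in GFP-positive cells. Because the gate read a MERVL-driven reporter, these genes and MERVL are not independent of the sort, and their values describe the sorted populations. The Zscan4 genes encode SCAN and zinc-finger proteins of 2-cell embryos, and Zscan4d (chromosome 7, 11161374 to 11166159, minus strand, GRCm38) had 70.4 and 62.2 CPM in GFP-negative cells and 5998 and 5744 CPM in GFP-positive cells. The 5 members tested lay between log2 fold changes of 6.18 ± 0.07 (Zscan4f) and 6.47 ± 0.07 (Zscan4d), and together they made up 0.0188% of gene reads on the GFP-negative and 1.27% on the GFP-positive side. Of the deubiquitinase genes of the Usp17l family, Usp17lc had 9.21 and 9.47 CPM in GFP-negative cells and 1031 and 1038 CPM in GFP-positive cells, and 5 of 5 tested members were higher. The Tcstv cluster on chromosome 13 was higher in 5 of 5 cases, with Tcstv3 at 2.42 and 2.30 against 326 and 292 CPM. Tdpoz genes encode BTB-domain proteins; Tdpoz4 had 3.02 and 2.41 CPM in GFP-negative cells and 408 and 401 CPM in GFP-positive cells and Tdpoz1, with the largest log2 fold change among called genes of at least 10 CPM, had 2 and 3 reads on the GFP-negative side against 372 and 343 on the GFP-positive side. The 42 listed Obox homeobox genes and pseudogenes summed to 4.198 against 214 CPM. 30 were tested and called higher, but 25 of them passed the count filter only with GFP-positive reads, so their direction was largely set by the filter. Members of these families share near-identical sequence and no source used here gives how reads matching several places were counted; values of single members are uncertain for that reason.

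Duxf3, the endogenous Dux gene (chromosome 10, 58229979 to 58232675, minus strand), had 22 and 13 reads on the GFP-negative side against 362 and 327 on the GFP-positive side, which came to 0.391 and 0.235 against 14.5 and 13.4 CPM (log2 fold change 5.46 ± 0.20, adjusted p = 5.20e-11). Both GFP-positive libraries lay above both GFP-negative ones, which with 2 libraries a group adds nothing to the call. No source used here says whether reads of the codon-altered transgene could count to this gene.

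**Figure D1:**
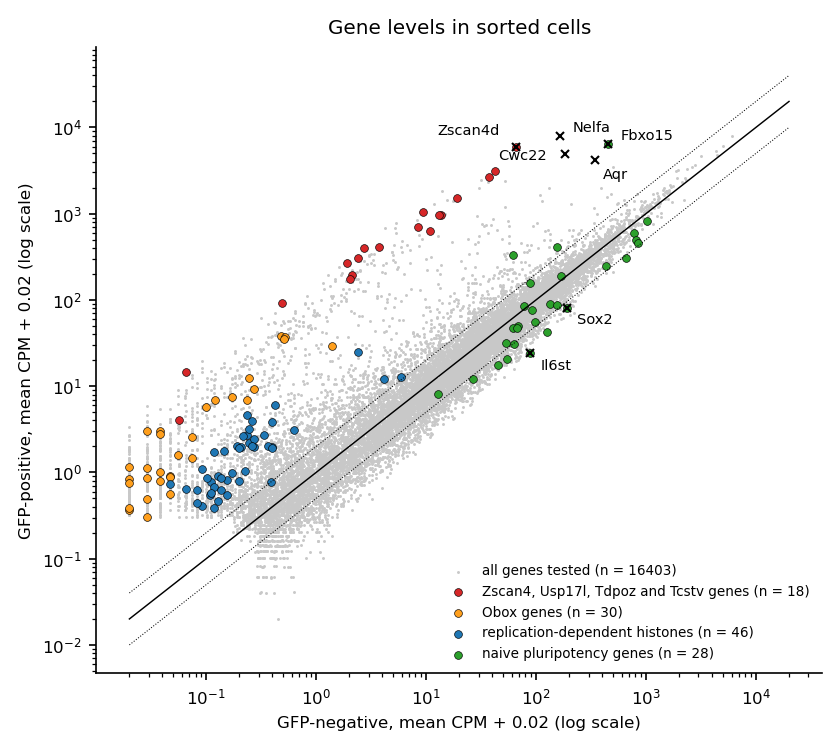
Mean level of each gene tested (grey points) in GFP-negative (x axis) and GFP-positive cells (y axis), in CPM plus 0.02 on log scales; coloured points are gene lists, crosses named genes, the solid line equal levels and the dotted lines 2-fold differences. The Zscan4, Usp17l, Tdpoz, Tcstv and Obox genes all lie far above the line, while most naive pluripotency genes lie below it.

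The largest gains in transcript level fell on single-copy genes as well as on families. Nelfa, a subunit of the negative elongation factor that pauses RNA polymerase II (chromosome 5, 33897916 to 33936413, minus strand), gained the most, from 165 and 166 CPM to 7835 and 7855 CPM (log2 fold change 5.57 ± 0.06, adjusted p = 1.77e-16). Fbxo15, an F-box gene that embryonic stem cells express and Oct4 and Sox2 control, followed with 452 and 452 CPM in GFP-negative cells and 6726 and 6071 CPM in GFP-positive cells. Cwc22 and Aqr encode proteins of the spliceosome: Cwc22, which places the exon junction complex, had 182 and 183 CPM in GFP-negative cells and 4952 and 5007 CPM in GFP-positive cells. Aqr, an RNA helicase that binds introns, had 334 and 347 CPM in GFP-negative cells and 3979 and 4326 CPM in GFP-positive cells (log2 fold change 3.61 ± 0.06, adjusted p = 5.79e-15). Iars, the isoleucyl-tRNA synthetase, rose 4.97-fold, while the largest log2 fold change among the other 19 tRNA synthetases was that of Aars at 0.68 ± 0.05. Dst, encoding the cytoskeletal linker dystonin, went from 497 to 3484 CPM, and Arhgef26, a guanine nucleotide exchange factor, from 51.8 to 2404 CPM. The other genes among the 15 with the largest gains were Zscan4c, Zscan4d and Zscan4f and the predicted genes Gm2016, Gm2022, Gm5662, Gm8300 and Gm8332, of which all but Gm2022, which had no coordinates here, lie within chromosome 12, 87514316 to 88274500.

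Among 22 tested genes of cleavage-stage embryos outside the gene families 18 were higher and 2 lower. Sp110, encoding a nuclear body protein, went from 9.38 to 1073 CPM, and Arg2, the mitochondrial arginase, from 7.07 to 379.9 CPM. The homeobox gene Lmx1a went from 2.32 to 212 CPM, Snai1, a repressor of E-cadherin, from 3.08 to 56.9 CPM, and the membrane protein gene Tmem92 from 9.06 to 507 CPM. Sox15, an HMG-box gene close to Sox2, was lower (-1.25 ± 0.19).

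Single genes outside the embryo families rose too, by various amounts. Rxra, a nuclear receptor for retinoids, went from 36.8 to 599 CPM, although 6 of 15 retinoic acid genes tested were higher and 4 lower and the receptor genes Rara (-0.74 ± 0.10) and Rarg (-0.43 ± 0.07) were lower. P4ha2, a collagen prolyl hydroxylase that hypoxia also induces, had 14.1 and 11.7 CPM in GFP-negative cells and 525 and 576 CPM in GFP-positive cells. In the hypoxia list it came from, 7 of 13 members were higher and 4 lower. Cycs, encoding cytochrome c, went from 4.91 to 60.99 CPM with a log2 fold change of 3.63 ± 0.09. The 81 nuclear genes of oxidative phosphorylation it was listed with had a median log2 fold change of -0.02, with 16 higher and 22 lower. Without the composition factor their median was -0.27, with 3 higher and 58 lower. Prps1, which makes a precursor of nucleotides, rose 4.34-fold and Impdh1, of guanine nucleotide synthesis, 3.05-fold. Dhcr7, the last enzyme of cholesterol synthesis, rose 5.44-fold in a list of 22 in which 7 were higher and 12 lower (5 higher and 15 lower without the composition factor). Zinc-finger genes outside the known families also rose, Zfp560 from 8.59 to 563 CPM, Zfp51 from 13.7 to 255 CPM and Zfp516 from 56.4 to 453 CPM, while over all 346 Zfp genes tested 110 were higher and 143 lower (78 higher and 183 lower without the composition factor).

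**Figure D2:**
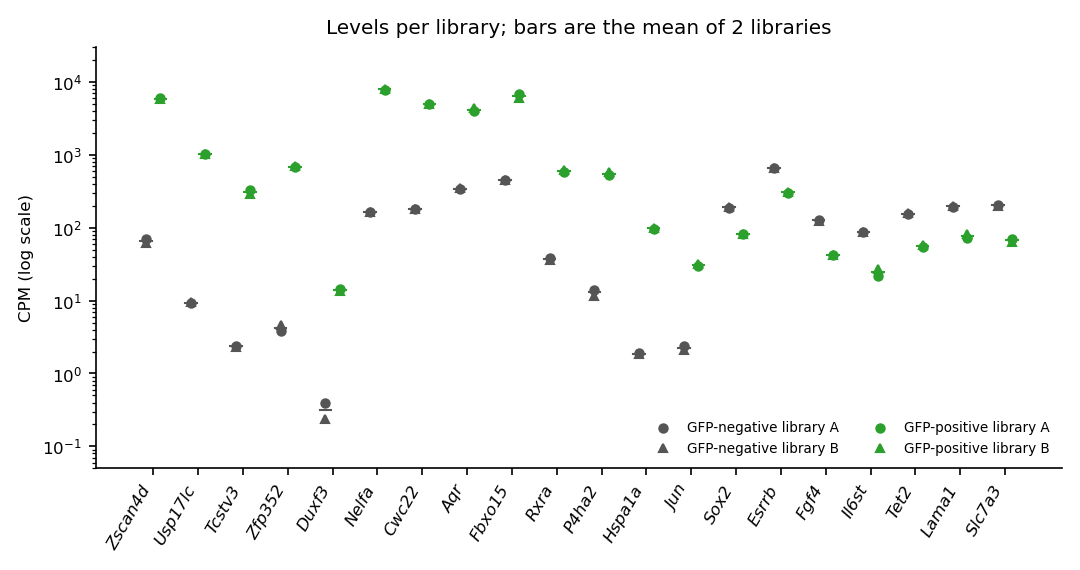
Level of 20 genes named in the text in each of the 4 libraries, in CPM on a log scale (circles, library A; triangles, library B; grey, GFP-negative; green, GFP-positive; bars, the mean of 2 libraries). In each gene shown both GFP-positive libraries lie on one side of both GFP-negative libraries. The genes were picked with the results known, so this adds nothing to their calls.

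GFP-negative cells were not devoid of these transcripts. Over the 391 genes with a log2 fold change of at least 3 and at least 10 CPM, the level in GFP-negative cells came to a median of 1.59% of that in GFP-positive cells, with 5th and 95th percentiles of 0.668% and 9.72%. The upper end of this range, 12.5% at most, was set by the choice of genes on their fold change. Zscan4d stood at 1.13%, Zfp352, a zinc-finger gene of 2-cell embryos, at 0.617%, Dppa3, a maternal factor that protects DNA methylation, at 3.46% and Aqr at 8.197%. In bulk RNA, a few cells with a high level and a low level in many cells cannot be told apart, and neither can fewer cells of a type and less RNA per cell. Of 1961 genes with reads in GFP-positive cells and none in either GFP-negative library, 101 had enough reads to be tested. All of these were higher, and they could only have passed through GFP-positive cells. In turn, 2090 genes had reads in GFP-negative cells and none in either GFP-positive library, of which 1 was tested and was lower.

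Promoter windows, 250 bases before to 50 after an annotated start, were at hand from RefSeq (GRCm38.p6) for 11172 of the 16403 genes tested. They are given because DUX is thought to act at such sequences. The letters GATTNAATC, a core of the site known for mouse DUX and identical on both strands, occurred in at least 1 window of 28 of these genes (0.251%) and in 88 of all 32851 windows of the table (0.268%). Among the 276 genes higher by a log2 fold change of at least 5 they occurred in 8 (2.90%), among the 275 between 3 and 5 in 2 (0.727%), and among the 3824 lower genes in 3 (0.0785%). A longer form of 11 letters, the core with 1 more letter at each end, occurred in 1 of the 11172 genes and in 11 of all 32851 windows. It occurred in 0 of the 276 genes, 0 of the 275 and 0 of the 3824. With 1 gene in all, the groups cannot be compared for the longer form. Of the genes higher by at least 5, 632 were tested, so most had no window in the table. These shares are a description of letters and show neither binding nor a cause; DUX sites in distant repeats lie outside the windows. 4 windows that hold the letters are printed 5′ to 3′ on the gene's strand, with the match in capitals. They belong to Gm4340 (chromosome 10, 104193792 to 104194091, plus strand), AF067061 of the Tcstv cluster (chromosome 13, 120262845 to 120263144, plus strand), Duxf3 (chromosome 10, 58233040 to 58233339, minus strand) and Pemt (chromosome 11, 60040139 to 60040438, minus strand).
Gm4340: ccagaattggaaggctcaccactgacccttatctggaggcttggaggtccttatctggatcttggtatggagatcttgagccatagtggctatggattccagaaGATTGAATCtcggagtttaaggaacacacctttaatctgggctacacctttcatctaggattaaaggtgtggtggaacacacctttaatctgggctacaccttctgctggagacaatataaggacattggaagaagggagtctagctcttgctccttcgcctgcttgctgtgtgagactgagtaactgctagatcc
AF067061: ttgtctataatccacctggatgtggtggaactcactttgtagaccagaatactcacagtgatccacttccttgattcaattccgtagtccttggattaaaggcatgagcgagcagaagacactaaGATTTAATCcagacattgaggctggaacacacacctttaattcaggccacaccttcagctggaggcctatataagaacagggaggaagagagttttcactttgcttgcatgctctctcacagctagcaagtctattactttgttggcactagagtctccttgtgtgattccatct
Duxf3: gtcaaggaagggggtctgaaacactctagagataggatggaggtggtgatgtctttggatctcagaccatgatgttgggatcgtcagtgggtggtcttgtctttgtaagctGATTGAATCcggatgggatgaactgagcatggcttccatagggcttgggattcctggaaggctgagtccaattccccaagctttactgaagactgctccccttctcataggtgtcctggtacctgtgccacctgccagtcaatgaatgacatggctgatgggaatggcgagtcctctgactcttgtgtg
Pemt: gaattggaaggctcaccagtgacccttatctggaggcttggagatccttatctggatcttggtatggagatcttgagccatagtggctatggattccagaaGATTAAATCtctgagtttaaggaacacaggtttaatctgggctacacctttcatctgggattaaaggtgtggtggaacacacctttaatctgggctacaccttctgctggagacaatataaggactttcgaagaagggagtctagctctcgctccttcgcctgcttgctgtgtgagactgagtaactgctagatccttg
The match begins at base -146 relative to the start in Gm4340, at -125 in AF067061, at -139 in Duxf3 and at -149 in Pemt. The windows of Gm4340 and Pemt, on different chromosomes, were identical at 96.6% of 297 bases when shifted by 3 bases. Of the 8 genes with the letters, a log2 fold change of at least 3 and at least 10 CPM, these and Gm21293, Gm12724 and Gm12790 were alike at 85.7% to 99.7% of bases in every pair, without gaps, so their matches lie in 1 shared sequence and are not independent of each other. AF067061 and Duxf3 matched every other window at 28.8% to 35.1%, and Esp24 lay at 56.9% to 66.1% against the 5 like windows. The comparison allowed no gaps, and the Esp24 window held stretches in common with theirs, as around the match in Pemt. The match in Esp24 is therefore not independent of theirs either. Pemt, which makes phosphatidylcholine, had 4.64 and 4.51 CPM in GFP-negative cells and 116 and 117 CPM in GFP-positive cells (log2 fold change 4.67 ± 0.08, adjusted p = 5.61e-15). AF067061 had 3.96 and 3.495 against 422 and 399 CPM and Gm4340 5.42 and 5.29 against 612 and 582 CPM. In all 3 genes the groups were far apart.

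The windows of the strongly raised genes also differed in base composition. The ratio of observed to expected CpG had a median of 0.198 over the 276 genes higher by a log2 fold change of at least 5, 0.527 over those between 3 and 5, and 0.732 over all 11172 genes. The G and C content was 49.2% against 60.7%, and the letters TATAAA, on either strand, lay in 20.7% against 9.03%. Low level in the GFP-negative cells went along with part of this: among genes of the lowest 25% by GFP-negative level that were not higher, the median CpG ratio was 0.477. The 56 genes higher by at least 5 that lay above these levels had 0.246. Near-identical windows, such as those of Gm21293 and Gm4340 at 99.7% of bases, were counted for each gene, so the 276 genes are not all independent promoters.

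**Figure D3:**
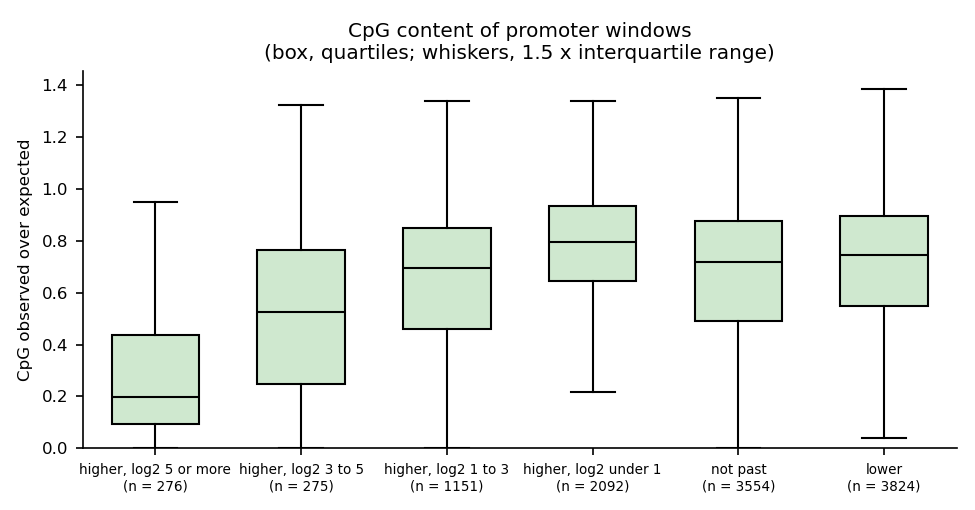
Ratio of observed to expected CpG in the promoter windows (mean over the windows of a gene), for genes grouped by their call and log2 fold change; n is the number of genes. The median falls from 0.732 over all genes to 0.198 in the group with the largest rises.

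Genes of naive pluripotency went down as a group without being lost: 5 of 28 tested members were higher and 22 lower (median log2 fold change -0.69). Il6st, encoding the signal-transducing receptor gp130, had 88.5 and 88.5 CPM in GFP-negative cells and 21.4 and 27.2 CPM in GFP-positive cells, Lifr, the receptor for leukemia inhibitory factor, 53.6 and 53.9 against 32.8 and 31.0 CPM, and Stat3, its transcription factor, 152 and 155 against 84.2 and 88.2 CPM. Among nuclear factors, Esrrb had 659 and 662 CPM in GFP-negative cells and 298 and 311 CPM in GFP-positive cells (log2 fold change -1.12 ± 0.05, adjusted p = 3.37e-10), and Tfcp2l1 846 and 837 against 447 and 478 CPM. Prdm14, a repressor of differentiation, had a log2 fold change of -1.17 ± 0.10, Utf1 of -1.37 ± 0.08, Tcl1 of -1.01 ± 0.07 and Lin28a, which blocks let-7 processing, of -1.41 ± 0.08. In each of these members both GFP-positive libraries lay below both GFP-negative ones, which with 2 libraries a group adds nothing to their calls. The members that rose were Fbxo15, Dppa2 (2.44 ± 0.06), Sall4 (1.43 ± 0.05), Klf5 (0.83 ± 0.07) and Tbx3, whose log2 fold change of 0.15 ± 0.06 became -0.10 without the composition factor. The call of Tbx3 was also lost without either GFP-negative library (adjusted p = 0.115 and 0.206) and without GFP-positive library B (0.276). Fbxo15 outweighed the rest, so that the list's summed level went from 6859 to 11207 CPM while most of its members fell.

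Signals that maintain or end this state moved unevenly. In the FGF and ERK list 8 of 18 tested members were higher and 10 lower (median log2 fold change -0.54). The ligand gene Fgf4 had 129 and 122 CPM in GFP-negative cells and 42.5 and 42.8 CPM in GFP-positive cells, the receptor gene Fgfr1 a log2 fold change of -0.77 ± 0.08, and the downstream ETS factors Etv4 and Etv5 of -1.01 ± 0.06 and -0.92 ± 0.05. Some quickly induced genes of the same pathway rose: Dusp5, a nuclear ERK phosphatase, went from 2.36 to 20.97 CPM and Egr1, a zinc-finger factor, from 0.162 to 5.81 CPM. Both groups grew with the kinase inhibitor PD0325901, and these transcript levels do not measure ERK activity. In the Nodal, TGF-beta and BMP list 9 of 22 members were higher and 11 lower. The ligand Nodal (-0.95 ± 0.07), its inhibitors Lefty1 (-1.23 ± 0.15) and Lefty2 (-2.06 ± 0.11), the co-receptor Tdgf1 (-0.70 ± 0.06) and the effector Smad3 (-1.33 ± 0.10) were lower. Id1 and Id2, targets of BMP signals, were higher at 4.24 to 26.3 CPM and 6.56 to 29.6 CPM, while the ligand Bmp4 was lower at 5.25 to 2.03 CPM. In the Wnt list 4 of 15 tested members were higher and 7 lower, or 4 and 8 without the composition factor. Axin2 went up from 14.6 to 50.95 CPM and Notum down from 42.2 to 13.7 CPM. The culture medium contains a Wnt-activating inhibitor in both groups. Of 13 Hippo genes tested 5 were higher and 6 lower, or 4 and 7 without the composition factor. Cyr61 (1.45 ± 0.08) and Ctgf (1.37 ± 0.08) were higher and the transcription factor gene Tead4 (-1.22 ± 0.08) lower.

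Most markers of later lineages were at low levels in both groups. In the epiblast list 6 of 17 tested members were higher and 9 lower (median log2 fold change -0.31), with Sox3 up from 0.762 to 10.5 CPM. In the trophectoderm list 7 of 16 tested members were higher and 4 lower. Cdx2, the trophectoderm regulator, had 28 and 18 reads on the GFP-negative side against 3 and 2 on the GFP-positive side. Its fall did not pass under DESeq2 (adjusted p = 0.100), nor without GFP-positive library B (log2 fold change -1.76). Tfap2c, of trophoblast and germ cells, fell from 29.1 to 8.36 CPM. In the primitive endoderm list 8 of 12 tested members were higher and 3 lower. Of the 12, 3 passed the count filter only with GFP-positive reads. Lama1 (196 to 76.4 CPM) and Lamb1 (33.3 to 77.3 CPM), laminin chains of that list, moved in opposite directions. Hox genes were higher in 15 of 21 cases, 10 of the 21 having passed the count filter only with GFP-positive reads, and the 37 listed summed to 21.4 CPM in GFP-negative and 43.0 CPM in GFP-positive cells, and Hoxd13 alone accounted for a change from 1.43 to 10.4 CPM. Germline genes that DNA methylation normally holds silent were higher in 21 of 28 cases and lower in 2, such as Tex19.1 at 64.4 and 62.3 against 222 and 199.8 CPM, Dazl at 45.2 and 48.5 against 162 and 139 CPM and Tdrkh, of the piRNA pathway, from 1.76 to 10.7 CPM. Sohlh2 was lower, at 48.2 and 49.98 against 30.5 and 33.9 CPM.

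**Figure D4:**
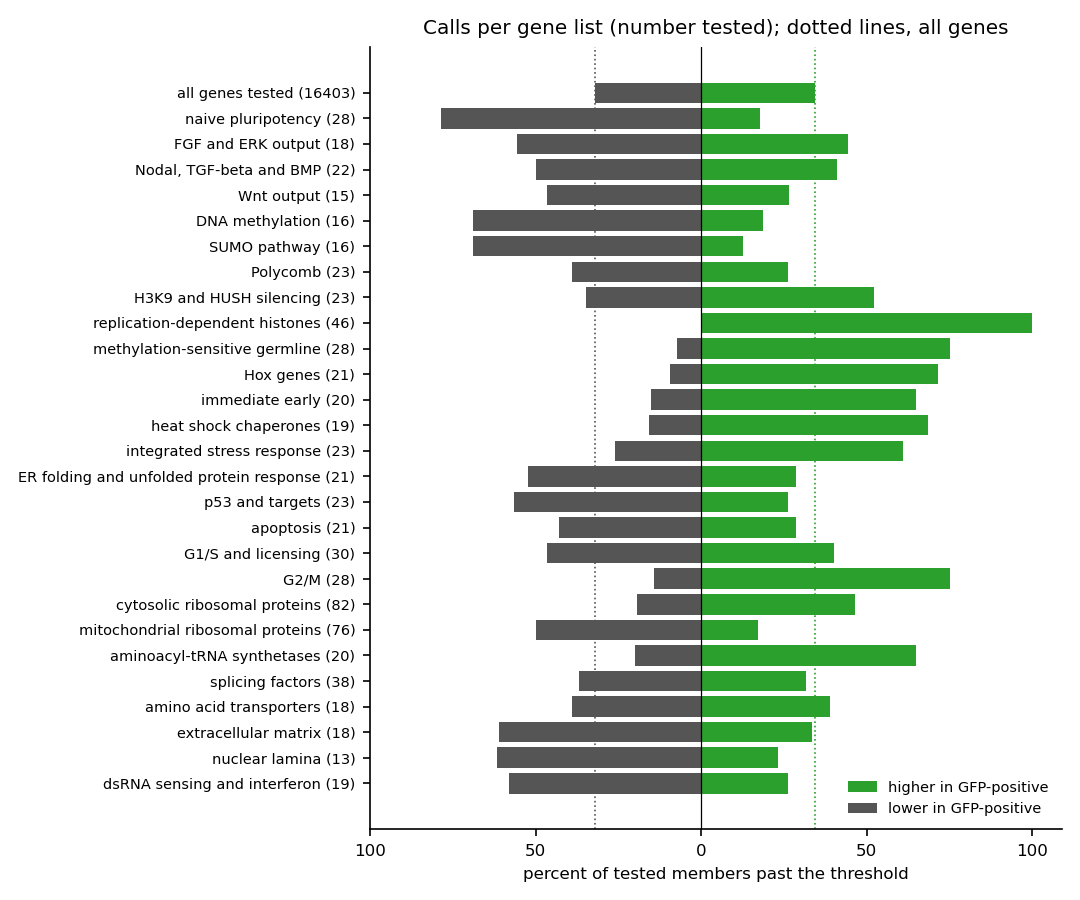
Percent of the tested members of 27 gene lists that were higher (green, to the right) or lower (grey, to the left) in GFP-positive cells, with the number tested in brackets; the dotted lines mark the share over all genes, 34.3% and 32.0%. Germline genes lean to the right, as do replication-dependent histones, 36 of which passed the count filter only with GFP-positive reads, and pluripotency, DNA methylation and SUMO genes to the left.

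Among chromatin regulators, the DNA methylation list had 3 members higher and 11 of 16 lower. Of the TET oxidases, which act to remove the mark, Tet2 had 154 and 157 CPM in GFP-negative cells and 54.9 and 58.6 CPM in GFP-positive cells (log2 fold change -1.46 ± 0.06, adjusted p = 1.12e-10) and Tet1 320.3 and 321 against 164 and 172 CPM. Tet3, at a low level, went from 5.38 to 2.38 CPM. Zfp57, which keeps methylation at imprinted loci, went from 429 to 226 CPM, and the methyltransferase Dnmt3b from 207 to 167 CPM. Dnmt3a (0.52 ± 0.08) and Uhrf2 (1.45 ± 0.07) were higher. The maintenance enzyme Dnmt1 did not pass (-0.10 ± 0.05, adjusted p = 0.106), but this call depended on the processing. Dnmt1 was called lower without the composition factor (-0.35), in a joint fit with the unsorted libraries (-0.19), with library sizes over all rows (-0.16) and without a count filter (-0.14). Without GFP-positive library B its log2 fold change was -0.15. Of the SUMO pathway, which modifies many repressors of MERVL, 11 of 16 members were lower and 2 higher; among the lower members were Sumo3 (-0.41 ± 0.05) and the protease genes Senp5 (-0.93 ± 0.09) and Senp1 (-0.91 ± 0.07). Silencing by H3K9 methylation showed no common direction, with 12 of 23 members higher and 8 lower, or 11 and 12 without the composition factor. Its scaffold Trim28, which recruits silencing complexes to retroviruses, had 1982 and 1959.8 CPM in GFP-negative cells and 3220 and 3141 CPM in GFP-positive cells. Its enzyme gene Setdb1 was higher (0.53 ± 0.05), and so were Zfp809, which targets retroviruses (2.69 ± 0.05), and Atf7ip (0.77 ± 0.06). The heterochromatin protein gene Cbx5 (-0.67 ± 0.05), the methyltransferase gene Suv39h2 (-0.91 ± 0.10) and Atrx (-0.56 ± 0.06) were lower. Among Polycomb genes 6 of 23 were higher and 9 lower, or 3 higher and 16 lower without the composition factor. Mga, part of the variant complex that represses germline genes, had 220.2 and 227 CPM in GFP-negative cells and 90.4 and 103 CPM in GFP-positive cells, Cbx7 114 and 103 against 50.9 and 58.1 CPM and Mtf2, an accessory subunit that rose, 453 and 497 against 868 and 808 CPM.

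Histone transcripts rose from a low level. Each of the 46 replication-dependent histone genes tested was higher, but 36 of them passed the count filter only with GFP-positive reads, and the 10 others were higher too. The 55 listed summed to 20.9 CPM in GFP-negative and 122 CPM in GFP-positive cells. Hist1h4i had the highest level in GFP-positive cells, 2.51 and 2.28 against 25.6 and 24.2 CPM. These mRNAs normally end without a poly(A) tail and the libraries were made from poly(A) RNA, so their counts are of the tailed part alone. The tailed linker histone variants H1fx (9.06 to 30.4 CPM) and H1f0 (27.2 to 66.9 CPM) were higher too.

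Several stress-induced genes were higher, while the lists they belong to moved unevenly. Hspa1a and Hspa1b encode inducible HSP70. Hspa1a had 1.902 and 1.83 CPM in GFP-negative cells and 95.1 and 100 CPM in GFP-positive cells, and Hspa1b 4.25 and 4.53 against 93.9 and 97.1 CPM. The genes are near-identical copies, so the split between them is uncertain. In the chaperone list 13 of 19 members were higher and 3 lower, or 8 higher and 6 lower without the composition factor. Beyond the HSP70 pair the changes were smaller, as in Dnajb1 (0.90 ± 0.06), Stip1 (0.65 ± 0.05) and the highly expressed Hsp90ab1 (0.39 ± 0.05). The mitochondrial chaperone Hspe1 was lower (-0.51 ± 0.05). Immediate early genes were higher in 13 of 20 cases: Fos had 0.978 and 0.869 against 14.2 and 14.4 CPM and Jun 2.36 and 2.08 against 29.5 and 31.3 CPM, while Junb (-1.05 ± 0.13) and Ier2 (-0.66 ± 0.07) were lower. In the integrated stress response list 14 of 23 members were higher and 6 lower; Atf3 had 0.711 and 0.507 against 6.98 and 8.83 CPM and its regulator Atf4 208 and 207 against 270.4 and 284 CPM. In the unfolded protein response list 6 of 21 were higher and 11 lower (3 higher and 15 lower without the composition factor). Dnajb9 (12.6 to 77.9 CPM) and Herpud1 (13.5 to 48.4 CPM) rose whereas Xbp1, the factor of the IRE1 branch, went from 36.5 to 13.8 CPM and the main ER chaperone Hspa5 from 702 to 489 CPM.

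Genes of cell death and p53 pointed both ways. Of 23 p53 genes 6 were higher and 13 lower (4 higher and 15 lower without the composition factor), with Trp53 itself at 442 and 455 against 329.9 and 329 CPM. Pmaip1, encoding the BH3 protein NOXA, had 10.3 and 9.56 CPM in GFP-negative cells and 89.3 and 77.2 CPM in GFP-positive cells, while Bbc3, encoding PUMA, had 21.3 and 21.1 against 6.94 and 7.72 CPM and Bid 66.98 and 69.95 against 24.4 and 24.1 CPM. Mdm4, an inhibitor of p53, went from 183 to 74.2 CPM. Interferon-related genes included the regulator Irf7, with 1 and 2 reads on the GFP-negative side against 32 and 29 on the GFP-positive side, Stat2 up from 27.4 to 79.3 CPM and the RNA sensor Ddx58 down from 39.3 to 13.4 CPM; in all 5 of 19 members were higher and 11 lower (3 higher and 13 lower without the composition factor).

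Cell cycle and growth genes showed smaller differences. In the G2/M list 21 of 28 members were higher and 4 lower, which became 9 higher and 7 lower without the composition factor. Among G1/S genes Ccne2 (1.14 ± 0.07) was higher, whereas Cdk6 (-1.40 ± 0.10), the licensing inhibitor Gmnn (-0.96 ± 0.05) and Ccnd3 (-0.65 ± 0.05) were lower. The mismatch repair gene Msh6 was among the 15 with the largest losses, at 799.7 and 802 against 442 and 448 CPM. Cytosolic ribosomal protein genes were higher in 38 of 82 cases and lower in 16, against 5 higher and 37 lower without the factor, so their direction rests on the scaling. Mitochondrial ribosomal protein genes were lower in 38 of 76 cases and higher in 13, and without the factor 3 higher and 58 lower. Splicing factor genes as a list had a median log2 fold change of -0.02, with 12 of 38 higher and 14 lower, and 7 higher and 26 lower (median -0.27) without the factor.

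Nutrient uptake and the cell surface held some of the clearest decreases. Of 18 amino acid transporter genes 7 were lower, all by at least 2-fold, and 7 higher (4 higher and 8 lower without the composition factor). Slc7a3, a transporter of cationic amino acids, had 206 and 199 CPM in GFP-negative cells and 70.8 and 62.9 CPM in GFP-positive cells, and Slc7a1, of the same kind, 108 and 108 against 45.9 and 47.1 CPM. The taurine transporter Slc6a6 (-1.52 ± 0.06) and the neutral transporters Slc38a1 (-1.46 ± 0.06) and Slc38a4 (-1.34 ± 0.06) were also lower, while the glutamine transporter Slc1a5 was higher (1.18 ± 0.06). Of 18 extracellular matrix genes 11 were lower and 6 higher. Among the lower ones, Hspg2, encoding perlecan, had 686 and 647 CPM in GFP-negative cells and 319.8 and 405 CPM in GFP-positive cells, the laminin gene Lama5 373 and 346 against 156 and 195 CPM and Nid1 281 and 286 against 155 and 165 CPM. Thbs1, which rose, went from 1.64 to 16.8 CPM. The gap junction gene Gjb5 went from 17.5 to 4.12 CPM. At the nuclear envelope 8 of 13 genes were lower, among them Sun1 (-0.97 ± 0.05), Sun2 (-1.01 ± 0.09) and Tmpo (-0.71 ± 0.05), while Syne2, a large linker protein gene, rose from 31.6 to 97.6 CPM. The long noncoding RNA Neat1, which scaffolds paraspeckles, had 80.5 and 62.7 CPM in GFP-negative cells and 27.9 and 27.4 CPM in GFP-positive cells, although the paraspeckle protein gene Sfpq was higher at 638 and 629 against 1425 and 1418 CPM. Of genes of at least 10 CPM the largest decreases were those of Ablim1, Pvt1, Gjb5, Klhdc7a, Lefty2, Nt5e and Rapgef3, all between log2 fold changes of -2.09 ± 0.15 and -2.05 ± 0.12.

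Across the genome, the calls were spread unevenly by gene structure and level. Of protein-coding genes with 1 exon block 235 of 443 were higher and 75 lower, against 4563 and 4698 of 13571 with several. Protein-coding genes known by a Gm number only were higher in 160 of 283 cases and lower in 45. In the lowest 25% of genes by GFP-negative level, at or under 1.29 CPM, 45.7% were higher and 9.53% lower, and in the highest 25%, from 50.7 CPM, 32.9% and 42.1%. Genes of low level could pass the filter on counts through GFP-positive reads alone, so these shares are not free of that filter. The GFP-negative level is also the base of the fold change, so groups cut on it are not independent of the calls. On the X chromosome 44.1% of 660 genes were higher and 22.6% lower, and on chromosome 13, which holds the Tcstv cluster, 41.3% and 25.2%.

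Repeat families were higher as a whole. Their reads made up 4.59% and 4.40% of all counted reads in GFP-negative and 17.3% and 17.0% in GFP-positive cells. Without MERVL-int and MT2_Mm the shares were still 4.51% and 4.33% against 12.5% and 12.2%. Of 1233 families tested 1057 (85.7%) were higher and 19 (1.54%) lower, with a median log2 fold change of 2.07. MERVL-int, the retrovirus behind the reporter, had 554 and 528 CPM in GFP-negative cells and 52224 and 51937 CPM in GFP-positive cells. MT2_Mm had 135 and 129 CPM in GFP-negative cells and 11803 and 11055 CPM in GFP-positive cells. The related, older families MERVL_2A-int (62.8 to 1679 CPM) and MT2B1 (66.8 to 2065 CPM) and the MaLR family ORR1A3-int (62.6 and 58.5 against 4190.4 and 3658 CPM) were next by reads among LTR elements. Their difference was smaller for MERVL_2A-int, at a log2 fold change of 4.74 ± 0.06, than for MERVL-int, at 6.59 ± 0.06. The 108 ERVL families listed had reads equal to 0.159% of the gene reads on the GFP-negative and 6.49% on the GFP-positive side, and the 281 ERVK families listed 0.580% and 1.55%.

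Retroviral families were not all higher. ETnERV3-int had 306 and 364 CPM in GFP-negative cells and 163 and 139.6 CPM in GFP-positive cells (log2 fold change -1.14 ± 0.09, adjusted p = 3.67e-08) and RLTR1B-int 860.3 and 863 CPM in GFP-negative cells and 469 and 474 CPM in GFP-positive cells (log2 fold change -0.87 ± 0.05, adjusted p = 4.10e-10). Of the 19 lower families 12 were LTR elements, 4 simple repeats, 2 DNA transposons and 1 a LINE. These counts go along with class size. They came to 2.02% of 593 LTR families, 1.83% of 219 simple repeats, 1.20% of 166 DNA transposons and 0.671% of 149 LINE families tested, beside 1.54% over all families. Among LINE elements, of which 137 of 149 were higher, the young family L1Md_A had 897 and 931 against 3569.8 and 3859.6 CPM, and L1Md_F2 486 and 469 against 5235 and 5152 CPM. Lx3_Mus, with a larger log2 fold change, had 39.03 and 35.4 against 1399.8 and 1311 CPM. All 37 SINE families were higher, and among their groups of at least 4 families the median log2 fold change ran from 0.92 for ID to 1.69 for B2, with B1_Mus1 at 925 and 843 against 4121 and 3932 CPM. The satellite GSAT_MM, the major repeat beside mouse centromeres, went from 0.495 to 36.9 CPM, and the satellite IMPB_01 had 79.2 and 73.5 against 342 and 313 CPM. The other 2 satellites tested did not pass: MMSAT4, with most of the satellite reads, went from 1129 to 1205 CPM (adjusted p = 0.180) and ZP3AR from 25.8 to 28.1 CPM (adjusted p = 0.194). MMSAT4 was past the threshold in opposite directions without GFP-positive library B (log2 fold change 0.19) and without the composition factor (-0.16). Reads from a repeat inside a longer transcript count to its family as well, and whether they came from the repeat's own promoter cannot be read from these counts.

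**Figure D5:**
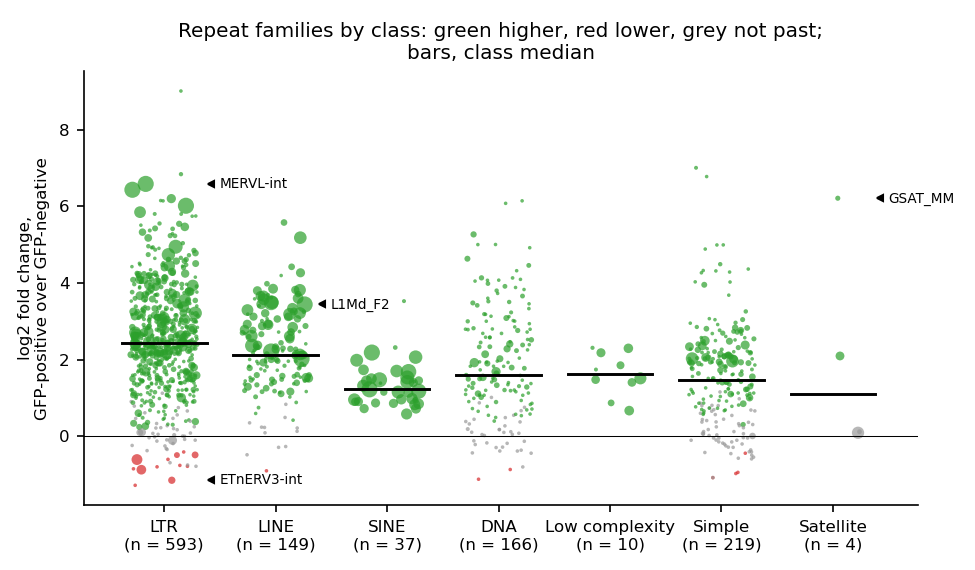
Log2 fold change of the repeat families tested in the 7 classes drawn (points; larger points have more CPM in GFP-positive cells; green higher, red lower, grey not past the threshold; bars, class median). Among these classes the medians lie between 1.11 for satellites and 2.43 for LTR elements. Few families are lower: 2.02% of LTR elements and 1.83% of simple repeats, beside 1.54% of all families tested.

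The sorted effect was set beside the effect of doxycycline in the unsorted cells of the line, 2 libraries with doxycycline for 24 h and 2 without. These are in another count table, and levels across tables are on the scale of a joint fit of 8 libraries. The tables also differed beside the treatment: repeat reads made up 15.4% and 15.9% of reads even without doxycycline, above the 4.59% and 4.40% of GFP-negative cells, and the X-linked pseudogene Gm5380 had 586, 624, 372 and 428 reads in the unsorted libraries but 0 in both GFP-negative ones. On that scale Zscan4d had a mean of 1.94 CPM without and 3374 CPM with doxycycline, and 83.1 CPM in GFP-negative and 6913 CPM in GFP-positive cells. Its sorted effect minus its doxycycline effect was -4.37 on the log2 scale ± 0.15. Nelfa had 48.7, 2427, 207 and 9237 CPM in the same order, and its effects differed by -0.16 ± 0.08 (adjusted p = 0.155). For Cwc22 the 4 means were 47.1, 842, 228 and 5863 CPM. On this scale GFP-negative cells stood above uninduced cells in all 3 genes, and GFP-positive cells above unsorted induced cells. Over all 17820 genes tested, the sorted effect was larger in 1759 (9.87%) and smaller in 3670 (20.6%), and over 1321 repeat families larger in 588 (44.5%) and smaller in 81 (6.13%). Without GFP-positive library A the gene counts became 4219 and 1774 and without library B 4187 and 1933, and the counts of repeat families with a smaller effect became 40 and 35. The balance of the gene calls thus turned when either GFP-positive library was left out, and kept its direction when any other library was. The reason was not tested.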

How the data were processed

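Polyadenylated RNA of the 12 libraries was sequenced as 125 bp paired-end stranded reads, per the labels' protocols; Novoalign 2.8, DESeq2 and mm10 are named in the submitters' processing notes, and no source used here names the counting tool. The authors deposited raw read counts per gene and repeat family; their log2 fold changes and adjusted p-values, deposited beside the counts, put 4583 genes higher and 4800 lower in the authors' deposited table and were not used further. 8 columns of rlog values were not used. Count columns are numbered from 0 and sample titles from 1, so libraries are called A and B. Counts were fitted with edgeR 4.0.16 (R 4.3.3) after a filter (minimum count 10, minimum total 15), with library sizes and TMM factors from gene rows, and p-values adjusted over genes and over repeat families apart. Coordinates and names are from GENCODE M21 (GRCm38), which held 27044 gene rows; promoter sequences are RefSeq's. The members and the 72 gene lists were chosen with earlier results of these data known. Named genes were, per list, up to 6 called members with the largest change at 5 CPM or more and the pathway's defining members, and the 15 with the largest gains, losses, rises and falls; repeats and differences between contrasts were named alike. Unsorted libraries held 9555044 to 15468715 gene reads. Fits were tested on simulated data; alternatives were another scaling, filter or tool, a replicate block and each library left out. The main fit used no pairing of libraries. Same-numbered libraries did not deviate together, which cannot show whether they are paired.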

Additional observations from a re-analysis of the deposited data

Results flagged for a closer look

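The effect of the sort differed from that of doxycycline in unsorted cells, by edgeR's interaction contrast over 8 libraries, in 1759 genes with a larger and 3670 with a smaller sorted effect, and in 588 repeat families with a larger and 81 with a smaller one. The genes with the largest differences and at least 10 CPM in a group were mostly ones without a read in the libraries without doxycycline, where the fitted value depends on the prior count and is no bound: Gm9573 (-6.92), Gm22112 (-6.79), Fam90a1a (-6.73), Gm11238 (-6.48), Gm11487 (-6.32), Tmem212 (-6.31), Gm12394 (-6.18) and Obox4-ps13 (-6.09). The other 2 had larger sorted effects. Cspg4, a proteoglycan gene, differed by 6.21, with 46 and 45 reads on the GFP-negative side against 937 and 1091 on the GFP-positive side, 4 and 4 reads without doxycycline and 3 and 0 with it. Gm5380 differed by 6.54, with 0 and 0 reads on the GFP-negative side against 13 and 9 on the GFP-positive side, so that its sorted effect also depends on the prior count and is no bound. Among repeat families HY1, of the Y RNAs, had a smaller sorted effect (-3.27), and RLTR46A2 (2.795), IAPLTR4_I (2.485), RLTR9A3B (2.46) and BGLII_Mus (2.08), all LTR elements, had larger ones. The call of Tmem212 was lost without GFP-negative library A and without either library lacking doxycycline (adjusted p from 0.0540 to 0.0719), and that of HY1 without library B of these (0.0755). These contrasts come from separate count tables whose repeat shares differ, and the part of that in these values was not tested.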

How the results depend on the processing

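Without the composition factor 4052 genes were higher and 7702 lower, against 5631 and 5252 with it, and 43 repeat families were lower in place of 19; the joint fit of 8 libraries gave 32. A 2-fold minimum left 2784 genes higher, 1356 lower, 956 repeat families higher and 4 lower. DESeq2 gave 4986 and 4374 genes and 1013 and 13 families. Leaving out 1 library gave 4873 to 5461 genes higher, 4398 to 5223 lower, 1018 to 1031 families higher and 14 to 20 lower; in these fits the lone library is assumed to vary like the others. For the difference from doxycycline it gave 1185 to 4219 genes larger, 1774 to 3159 smaller, 481 to 768 families larger and 35 to 76 smaller. Same-numbered columns did not deviate together (correlation of deviations -0.15 over 8831 genes), which cannot show whether libraries are paired. As a replicate block the column numbers gave 5405 and 5014 genes and 1052 and 18 families. The crossed pairing, chosen after seeing the data, gave 5706 and 5338 genes and 1056 and 18 families. Over the 211 named genes and families, 2874 of 2903 values under the alternatives kept their direction and side of the threshold; the others belonged to Tbx3, Cdx2, Dnmt1, MMSAT4, Pramef12, Tmem212 and HY1, and without the composition factor Tbx3 turned to -0.10 and MMSAT4 to -0.16. The cause was not tested. Genes with few reads were limited by depth.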

Other observations

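Genes of the olfactory and related receptor families, which stem cells hardly express, were detected in GFP-positive cells. Of 259 olfactory receptor genes listed, 27 were tested, and 23 of these passed the count filter only with GFP-positive reads. Of the 4 others 2 were higher and 2 lower. The whole family summed to 5.62 CPM in GFP-negative and 170 CPM in GFP-positive cells. Olfr450 had 5 and 3 reads on the GFP-negative side against 367 and 349 on the GFP-positive side, Olfr881 6 and 12 reads on the GFP-negative side against 666 and 579 on the GFP-positive side and the vomeronasal receptor gene Vmn2r94 4 and 3 reads on the GFP-negative side against 282 and 255 on the GFP-positive side. Slc22a28, of the organic anion transporter family, was close to these in its pattern, at 0.0533 and 0.0905 against 20.4 and 18.6 CPM. The Pramel and Pramef genes, a reproduction-related family with leucine-rich repeats, were higher in 9 of 10 cases, from 1.49 ± 0.10 for Pramef17 to 6.40 ± 0.07 for Pramef25. Pramef12 was lower (-0.15 ± 0.06), a call lost under DESeq2 (adjusted p = 0.121), with the replicate block (0.0868), without either GFP-negative library (0.189 and 0.191) and without GFP-positive library A (0.0546). Of 48 Trim genes 20 were higher and 14 lower (14 and 18 without the composition factor), with Trim75 up from 1.78 to 109 CPM, Trim43a up from 0.968 to 30.2 CPM and Trim71, a regulator of let-7 targets, down from 128 to 55.8 CPM.

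Imprinted genes did not share a direction, with 11 of 23 higher and 7 lower. The maternally expressed noncoding RNAs of the Dlk1 domain were lower together: Meg3 had 63.5 and 54.7 against 32.1 and 36.5 CPM, Rian 192 and 186 against 111 and 115 CPM and Mirg 12.4 and 12.01 against 6.98 and 5.95 CPM. Magel2 rose from 0.475 to 15.01 CPM, Cdkn1c, a cell cycle inhibitor, from 0.809 to 6.59 CPM and Peg3 from 49.1 to 134 CPM. Of 13 telomere genes 4 were higher and 6 lower (3 higher and 9 lower without the composition factor). The telomerase reverse transcriptase gene Tert had 14.04 and 16.97 against 6.02 and 7.43 CPM and the shelterin gene Terf2 50.2 and 50.7 against 26.7 and 28.2 CPM, while the shelterin gene Tinf2 had 51.7 and 55.6 against 93.5 and 98.5 CPM. Of 20 redox genes 8 were higher and 8 lower (4 and 12 without the factor), with Srxn1 (-1.45 ± 0.09) and Gclm (-1.03 ± 0.06), targets of the factor NRF2, lower and Hmox1 (1.04 ± 0.06) higher. In the cohesin and condensin list 9 of 15 were higher and 3 lower (5 and 6 without the factor). The rises were led by the condensin genes Smc2 (0.73 ± 0.05) and Smc4 (0.58 ± 0.05) and the falls by Pds5a (-0.55 ± 0.05). Asf1a (0.91 ± 0.06) and Asf1b (0.91 ± 0.06), chaperones of histone H3 and H4, were higher, and Hira (-0.79 ± 0.06), which deposits the variant H3.3, was lower.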
